A study of Arabidopsis thaliana with 8 samples.

Results

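The genes described here are 10 Arabidopsis thaliana genes that make or export cutin and wax, the lipids of the plant cuticle, out of 27416 genes in the table of ribosome footprint counts. They were chosen by identifier: LACS2 (AT1G49430), KCS6 (AT1G68530), KCS10 (AT2G26250), CER1 (AT1G02205), CER3 (AT5G57800), CER4 (AT4G33790), CYP86A2 (AT4G00360), GPAT4 (AT1G01610), ABCG11 (AT1G17840) and ABCG12 (AT1G51500). All 10 had counts and passed the filter on low counts. The plants were Col seedlings aged 4 days, grown in shaken liquid medium with 1% sucrose at 22 °C in 16 h light and 8 h dark, and collected at 3 h of light. Roots and shoots were each extracted in 4 polysome buffers, giving 4 root libraries and 4 shoot libraries, 1 for each tissue and buffer. Buffers A, B and C held 25, 20 and 15 mM MgCl2 and 50, 40 and 30 mM KCl in 200 mM Tris, and buffer D held 20 mM MgCl2 and 40 mM KCl in 100 mM Tris; cycloheximide, DTT, detergents and DNase were in every buffer. Nothing in the labels says that the libraries of a tissue came from separate plants, so p-values measure only the spread between these libraries.

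The cuticle is a lipid layer that the epidermis of stems, leaves and cotyledons secretes onto its outer wall, where it limits water loss and keeps growing organs from fusing. Its polymer, cutin, is built from hydroxylated fatty acids joined to glycerol, while its waxes are very-long-chain fatty acids and the aldehydes, alkanes and alcohols made from them. Acyl-CoA synthetases activate the fatty acids, the ER elongation complex lengthens those bound for wax, P450 hydroxylases and acyltransferases make the cutin monomers, and ABC transporters carry both out of the cell. In older parts of the root a related polymer, suberin, is made largely by paralogs of the same enzyme families.

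Root libraries held 1120218 to 3410266 counts each and shoot libraries 3746348 to 4501213. Defining genes of each tissue were present in the libraries labelled with it. The 6 root markers, among them CASP1 of the Casparian strip and PRP3 of root hairs, summed to between 1970 and 2554 CPM in the root libraries and between 77.7 and 185 CPM in the shoot libraries (CPM, counts per 1000000, scaled by the counts of the genes tested and the TMM factor). The 4 shoot mesophyll markers, CAB1, RBCS1A, GUN5 and GOX1, summed to between 205 and 293 CPM in root and between 33730 and 38196 CPM in shoot, a root level of 0.702% of the shoot level. The 3 shoot epidermis markers, ATML1, PDF1 and PDF2, summed to between 4.29 and 16.2 CPM in root and between 469 and 566 CPM in shoot, or 1.73%; PDF2 was at 0 in root C, and ATML1 and PDF1 had counts in all 8 libraries. How much of the root signal below comes from shoot material was not tested.

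Of the 10 cutin and wax genes, 9 were lower in root and 1, CER4, was higher in root, relative to shoot. The log2 fold changes, root minus shoot, of the 9 ran from -5.87 for ABCG11 to -2.37 for GPAT4, and that of CER4 was 4.90. All 10 passed an adjusted p of 0.05 (edgeR quasi-likelihood test, Benjamini-Hochberg over 15664 genes). By the filter's level, 2.79 CPM of the library total in all 4 libraries of a tissue, KCS6, KCS10, CER3, ABCG12, CYP86A2 and GPAT4 qualified in both tissues. CER1, LACS2 and ABCG11 qualified through shoot alone, with 1, 2 and 3 root libraries at the level, and CER4 through root alone. The filter thus favoured a difference in these 4, and the count over the 10 is a description. In all genes tested, 40.3% were called, 22.6% lower in root and 17.8% higher, and 47.2% had an unadjusted p under 0.05. The 4 root libraries lay below the 4 shoot libraries for the same 9 genes, against 25.3% of all genes, and above them for CER4, against 19.8%. The median over the 10 genes was -4.39, and over all genes tested it was -0.12. With library totals in place of TMM factors that overall median was 0.38 and 64.0% of the calls were higher in root, against 44.0%, but the 10 genes kept their directions and calls. Counts on coding sequences combine mRNA level with translation, and fewer epidermal cells cannot be told apart from less RNA per cell.

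**Figure D1:**
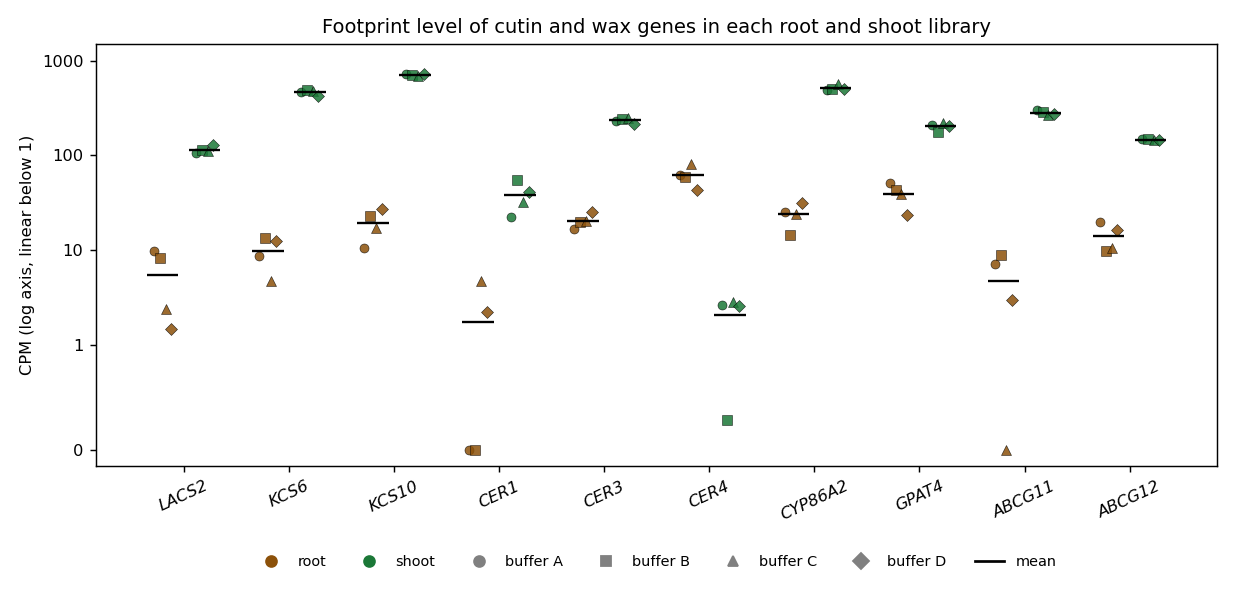
Footprint level in CPM (y axis, logarithmic above 1 and linear below) of each of the 10 genes in the 4 root libraries (brown, left) and the 4 shoot libraries (green, right); marker shape gives the buffer and the bar the mean. CER4 is the gene whose root points, 42.7 to 81.5 CPM, lie above its shoot points, 0.285 to 2.82 CPM.

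As a sum, the 10 genes took between 0.0225% and 0.0246% of the counts of a root library and between 0.223% and 0.233% of a shoot library. Their summed level was 200.2 ± 11.1 CPM in root and 2705 ± 42.5 CPM in shoot (mean ± SD, n = 4 each). Without CER4 the sum was 138.8 ± 11.2 CPM in root and 2703 ± 42.6 CPM in shoot, so the root level of the other 9 was 5.14% of the shoot level, beside 7.40% for all 10.

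Fatty acid activation and elongation come first in the pathway. LACS2, a long-chain acyl-CoA synthetase needed for leaf cutin, had 9.85, 8.27, 2.38 and 1.47 CPM in root libraries A, B, C and D, against 105, 113, 112 and 129 CPM in shoot libraries A, B, C and D. Its level was lower in every root library than in any shoot library, and within root libraries C and D lay below A and B. The log2 fold change was -4.32 ± 0.40 (SE; adjusted p = 8.7e-06, edgeR). KCS6, also known as CER6, the condensing enzyme that elongates acyl chains for shoot wax, had 8.59, 13.4, 4.77 and 12.5 CPM in root libraries A to D, against 471, 488, 474 and 423 CPM in shoot libraries A to D. Root held 2.12% of its shoot level, a log2 fold change of -5.62 ± 0.23 (adjusted p = 1.9e-08). KCS10, also known as FIDDLEHEAD, a ketoacyl-CoA synthase family member whose loss lets organs fuse, had 10.6, 22.8, 17.2 and 27.2 CPM in root libraries A to D, against 722, 697, 689 and 722 CPM in shoot libraries A to D. Its 4 shoot values were within 1.05 times of each other, and its root values spread over 2.57 times. The log2 fold change was -5.28 ± 0.22 (adjusted p = 1.9e-08).

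The wax pathway then splits into an alkane branch and an alcohol branch, and the members of these branches went opposite ways. CER3, the partner of CER1 in turning very-long-chain acyl-CoAs into alkanes, had 16.7, 19.6, 20.5 and 25.0 CPM in root libraries A to D, against 232, 242, 247 and 214 CPM in shoot libraries A to D. It kept 8.75% of its shoot level in root, a log2 fold change of -3.54 ± 0.18 (adjusted p = 8.0e-08). CER1, the alkane-forming enzyme, had 0, 0, 4.77 and 2.21 CPM in root libraries A to D, against 22.3, 55.6, 32.3 and 40.9 CPM in shoot libraries A to D. The root value rests on 13 counts in all, and a count of 0 allows up to 0.758 CPM in root A and 1.55 CPM in root B (3 counts of the library; counting error only). Its log2 fold change, -4.72 ± 0.76 (adjusted p = 5.4e-04), moved with single libraries: it was -6.21 without root C and -6.22 without shoot C, which are nearly the same check, and -4.12 without root B, with the call kept in each.

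CER4, an alcohol-forming fatty acyl-CoA reductase that makes the primary alcohols of wax, was the exception among the 10. Its level was 62.4, 58.9, 81.5 and 42.7 CPM in root libraries A to D, against 2.65, 0.285, 2.82 and 2.54 CPM in shoot libraries A to D. It rested on 590 counts in root and 28 in shoot, and the shoot B value was 1 count. The mean was 61.4 ± 15.9 CPM in root and 2.07 ± 1.20 CPM in shoot (SD, n = 4 each), a ratio of 29.6, and the log2 fold change was 4.90 ± 0.45 (adjusted p = 8.2e-06). Leaving out each library in turn gave values from 4.48 to 5.17. The 6 root markers had log2 fold changes between 3.87 and 5.36, so CER4 lay within their range.

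For cutin monomers, the P450 and the acyltransferase were both lower in root, and whether their fold changes differ was not tested. CYP86A2, a fatty acid hydroxylase that adds the hydroxyl group at the chain end, had 25.5, 14.5, 23.8 and 31.7 CPM in root libraries A to D, against 489, 507, 568 and 500 CPM in shoot libraries A to D. Root held 4.63% of the shoot level (log2 fold change -4.46 ± 0.19, adjusted p = 2.4e-08). GPAT4, which joins the hydroxylated acyl chain to glycerol together with its paralog GPAT8, had 51.0, 42.9, 39.1 and 23.6 CPM in root libraries A to D, against 208, 175, 220 and 205 CPM in shoot libraries A to D. Of the 9 genes that were lower in root it kept the largest share of its shoot level, 19.4%, with a log2 fold change of -2.37 ± 0.20 (adjusted p = 5.0e-06). Its root libraries did not reach its shoot libraries: the highest root value was 51.0 CPM and the lowest shoot value 175 CPM.

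Both exporters were lower in root. ABCG11, an ABC transporter of the plasma membrane needed to export wax and cutin lipids, had 7.07, 8.79, 0 and 2.94 CPM in root libraries A to D, against 300, 284, 265 and 272 CPM in shoot libraries A to D. The 0 in root C allows up to 1.43 CPM. With 1.68% of the shoot level in root, ABCG11 had the lowest log2 fold change of the 10, -5.87 ± 0.40 (adjusted p = 9.1e-07). ABCG12, also known as CER5, which pairs with ABCG11 in wax export, had 20.0, 9.82, 10.5 and 16.2 CPM in root libraries A to D, against 148, 149, 145 and 144 CPM in shoot libraries A to D. Its root level was 9.63% of its shoot level, and its log2 fold change was -3.39 ± 0.23 (adjusted p = 8.8e-07).

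Whether 2 related genes differed by the same amount between the tissues was examined with the log2 ratio of their counts within each library, which needs no scaling between libraries (0.5 counts added to each). A total of 6 pairs were compared with a two-sided exact permutation test of 4 root against 4 shoot libraries, whose smallest possible p is 0.0286, and no pair passed after Benjamini-Hochberg adjustment over the 6. For 3 pairs the root and shoot libraries did not overlap. The ratio of CER4 to CER3, the alcohol branch against the alkane branch, was 1.90, 1.57, 1.98 and 0.76 in root libraries A to D, against -6.38, -9.15, -6.38 and -6.31 in shoot libraries A to D. Its root mean exceeded its shoot mean by 8.61 (exact permutation p = 0.0286, adjusted p = 0.0571), and by 7.91 without shoot B, whose CER4 value is 1 count (exact permutation, adjusted p = 0.0857). The ratio of KCS6 to its paralog KCS5, also known as CER60, averaged -0.89 ± 0.62 in root and 2.34 ± 0.25 in shoot (SD, n = 4 each), a difference of -3.23 (exact permutation p = 0.0286, adjusted p = 0.0571). KCS5 itself averaged 17.8 ± 5.55 CPM in root, against 91.9 ± 12.5 CPM in shoot (SD, n = 4 each), and fell by 2.38 ± 0.25 on the log2 scale (SE). The ratio of ABCG11 to ABCG12 averaged -2.36 ± 2.27 in root and 0.93 ± 0.06 in shoot (SD, n = 4 each), a difference of -3.30 (exact permutation p = 0.0286, adjusted p = 0.0571), or -4.03 without root B.

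**Figure D2:**
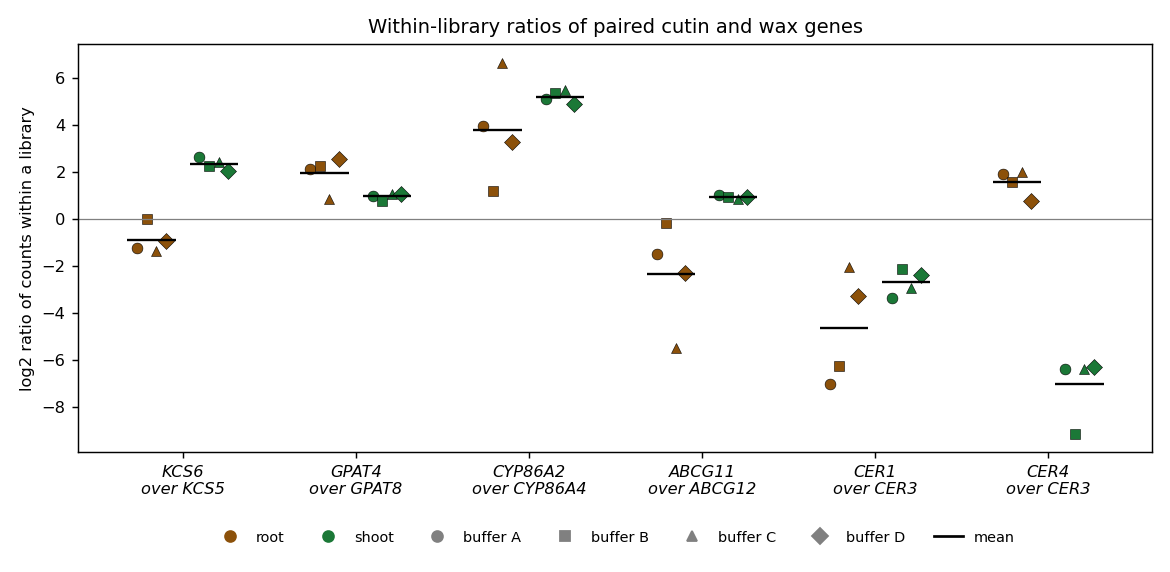
Log2 ratio of the counts of 2 related genes within a library (y axis) for 6 pairs, with the 4 root libraries (brown, left) and the 4 shoot libraries (green, right) of each; marker shape gives the buffer and the bar the mean. Root and shoot do not overlap for CER4 over CER3, KCS6 over KCS5 and ABCG11 over ABCG12, and root C stands away from the other root libraries in several pairs.

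In the other 3 pairs the libraries of the tissues overlapped. The ratio of GPAT4 to GPAT8 averaged 1.95 ± 0.75 in root and 0.96 ± 0.15 in shoot (SD, n = 4 each; exact permutation p = 0.114, adjusted p = 0.171). For CYP86A2 over CYP86A4, a P450 of the same subfamily, the means were 3.77 ± 2.26 in root and 5.21 ± 0.27 in shoot (SD, n = 4 each; exact permutation p = 0.286, adjusted p = 0.286). CER1 over CER3 averaged -4.67 ± 2.38 in root and -2.70 ± 0.56 in shoot (SD, n = 4 each; exact permutation p = 0.257, adjusted p = 0.286). These results turned on root C and on the pseudocount. In root C, ABCG11 and CYP86A4 had 0 counts. The root C ratios of ABCG11 to ABCG12, -5.49, and of CYP86A2 to CYP86A4, 6.66, thus rest on the 0.5 counts added. Without root C, 5 of the 6 pairs, all but CER1 over CER3, had an exact permutation adjusted p of 0.0343, and the difference was then -2.25 for ABCG11 over ABCG12, -2.40 for CYP86A2 over CYP86A4, against -1.44 with all libraries, and 1.35 for GPAT4 over GPAT8, against 0.99. Without root B, CYP86A2 over CYP86A4 differed by -0.57. The difference of CER1 over CER3 was -1.97, and it was -1.17 without root A, -2.84 without root C and -0.86 with 2 counts added. With 2 counts added in place of 0.5, 4 pairs passed at an adjusted p of 0.0429: the 3 without overlap and CYP86A2 over CYP86A4. The 3 pairs without overlap already had the smallest possible permutation p with all libraries and 0.5 counts added. Their adjusted p depended on how many of the 6 pairs shared it: 0.0571 with 3, 0.0429 with 4 and 0.0343 with 5. In these runs the change of call in those 3 pairs was thus set by the other pairs.

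Some of these cutin genes lie near each other, each near a gene of the other enzyme family. In the RefSeq annotation CYP86A4 and GPAT4 are adjacent on chromosome 1 with 0 genes between them, and CYP86A2 and GPAT8 lie on chromosome 4 with 3 protein-coding genes between them. All 4 were lower in root: CYP86A4 had a log2 fold change of -2.75 ± 0.81 (adjusted p = 0.0190) and GPAT8 -3.25 ± 0.33 (adjusted p = 1.7e-05), beside the -2.37 of GPAT4 and the -4.46 of CYP86A2 (edgeR). CYP86A4 rested on 22 counts in root, and its call was lost without root A (-2.55, adjusted p = 0.0683), without shoot A (-2.62, adjusted p = 0.0868) and without shoot C (-2.20, adjusted p = 0.0550). Without root B it was -3.51 and without shoot B -3.53, with the call kept. Runs without the root or the shoot library of the same buffer are nearly the same check.

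Other genes of the cuticle pathway, 39 in a list of enzymes, transporters and regulators, went largely the same way as the 9. Of these 39, 28 passed the filter on low counts. Of the 28, 24 were lower in root, 0 were higher and 4 did not pass the test. In all genes tested, 22.6% were called lower in root and 17.8% higher. The median log2 fold change of the 28 was -3.67, beside -0.12 for all genes. The median is the same with the 4 genes at 0 in root set at their bound. Genes that passed the filter through shoot alone were favoured to differ, so the count is a description. Among the 17 enzymes measured, of 23, 16 were lower. The 3 transporters measured, of 4, were all lower: LTPG1 and LTPG2, lipid transfer proteins anchored to the plasma membrane, at -5.15 ± 0.28 and -4.99 ± 0.19, and ABCG32, an exporter of cutin precursors, at -4.84 ± 0.20 (adjusted p from 1.2e-08 to 1.4e-07). LTL1, a GDSL lipase family gene, averaged 5.71 ± 4.64 CPM in root, against 687 ± 37.2 CPM in shoot (log2 fold change -7.07 ± 0.40, adjusted p = 2.2e-07), and HTH, whose loss lets organs fuse, averaged 12.6 ± 9.81 CPM in root, against 611 ± 46.5 CPM in shoot (-5.69 ± 0.35, adjusted p = 3.9e-07). CER2, which acts with KCS6 in elongation and is named here after its value was seen, averaged 4.24 ± 3.68 CPM in root, against 239.9 ± 11.3 CPM in shoot (-6.08 ± 0.36, adjusted p = 2.6e-07); leaving out root D gave -6.70 and leaving out shoot D -6.72. AT4G13840 (CER26), a relative of CER2 also named after its value was seen, had 0 counts in the 4 root libraries, and its shoot level was at least 156-fold higher, a bound set by 3 counts over the root libraries.

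**Figure D3:**
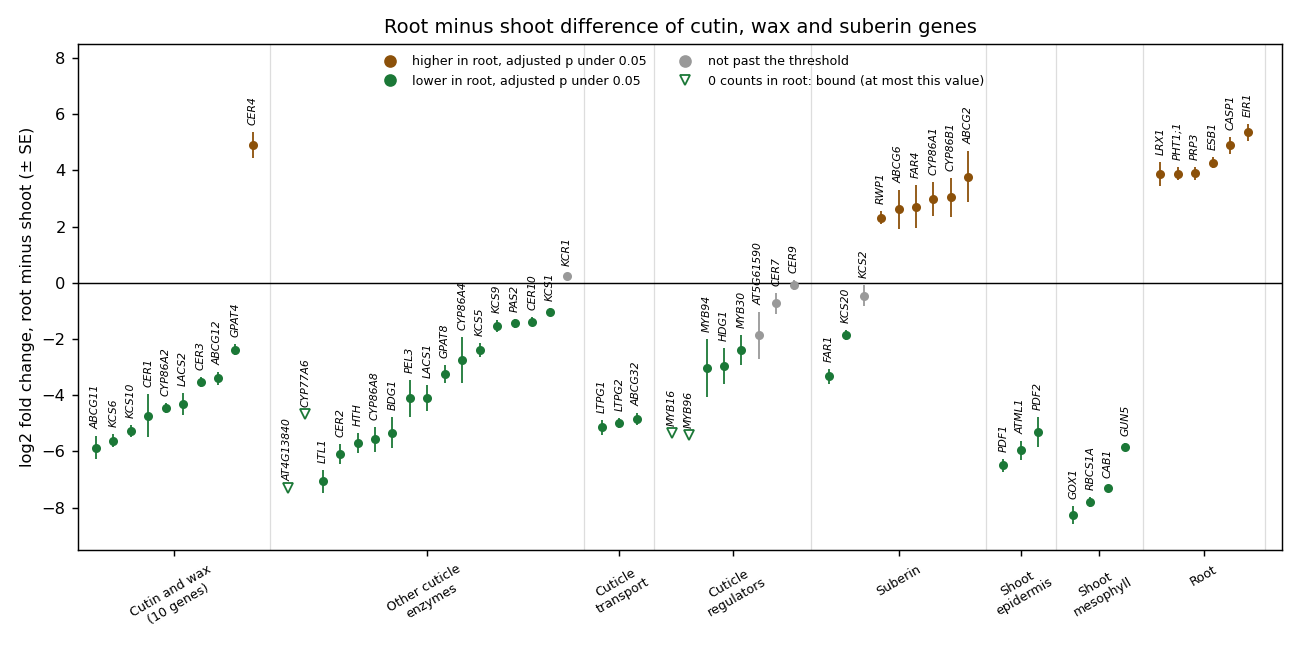
Log2 fold change, root minus shoot, ± SE (y axis) of every gene tested, sorted within groups: the 10 cutin and wax genes, other cuticle enzymes, transport, regulators, suberin genes and marker genes. CER4, at 4.90, is the 1 gene of the 4 cutin and wax groups past the threshold above 0; open triangles mark genes with 0 root counts, whose value is a bound.

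The core enzymes of the ER elongation complex also serve sphingolipids and other lipids. KCR1, the ketoacyl-CoA reductase, averaged 265 ± 11.5 CPM in root, against 223 ± 11.7 CPM in shoot (SD, n = 4 each), a log2 fold change of 0.25 ± 0.11 (adjusted p = 0.108, edgeR); with library totals alone it was 0.75 (adjusted p = 2.5e-04). PAS2, the dehydratase, had a log2 fold change of -1.44 ± 0.17 (adjusted p = 5.8e-05), and CER10, the enoyl-CoA reductase, one of -1.38 ± 0.15 (adjusted p = 2.9e-05). KCS1, a broadly used condensing enzyme, stood at -1.03 ± 0.14 (adjusted p = 1.8e-04). These values lie closer to 0 than that of KCS6, at -5.62, whose difference from them was not tested.

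Among 12 regulators, 8 were measured, 5 were lower in root and 3 did not pass, beside 22.6% of all genes tested called lower. The call of MYB94, 1 of the 5 and named after its value was seen, rested on 22 root counts (-3.03 ± 1.02, adjusted p = 0.0363): it was lost with library totals alone (-2.58, adjusted p = 0.0671) and without root B, C or D or shoot B, C or D (adjusted p from 0.0696 to 0.142). Without root A it was -4.35 and without shoot A -4.41, with the call kept. The root and shoot runs of a buffer are nearly the same check. SHN1, SHN2 and SHN3, ERF factors that activate cuticle genes, had a count of 0 in all 8 libraries. MYB96 and MYB16, activators of wax and cuticle genes named after their values were seen, had 0 root counts and shoot levels at least 42.8-fold and 40.5-fold higher. MYB30, an activator of very-long-chain fatty acid genes, had a log2 fold change of -2.39 ± 0.54 (adjusted p = 4.8e-03); leaving out root D gave -3.10 and leaving out shoot D -3.12. HDG1, a homeodomain factor, stood at -2.97 ± 0.64 (adjusted p = 3.7e-03), with -3.58 without root A and -3.63 without shoot A. CER9, a ubiquitin ligase of the ER, averaged 90.5 ± 15.6 CPM in root, against 95.3 ± 7.50 CPM in shoot (-0.08 ± 0.18, adjusted p = 0.748), and CER7, an exosome subunit, had -0.73 ± 0.36 (adjusted p = 0.143).

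Suberin genes, most of them from the same families as the cutin and wax genes, divided. Of 13 listed, 9 were measured: 6 were called higher in root and 2 lower, and KCS2 was not called. Over all genes tested, 17.8% were called higher in root and 22.6% lower. Except for RWP1, the genes called higher had between 10 and 39 shoot counts each. Genes that passed the filter through root alone were favoured to differ, so the counts and the median are a description. The median log2 fold change of the 9 was 2.62. It was 0.89 with every library thinned to the smallest total, where 6 genes could be tested. The summed level of the 13 was 339 ± 43.6 CPM in root, against 406 ± 27.7 CPM in shoot (SD, n = 4 each), 83.4% of the shoot level. KCS20, which was lower in root, made up 72.8 ± 18.1 CPM of the root sum, against 262 ± 16.6 CPM of the shoot sum. RWP1, the feruloyl transferase of suberin, averaged 156 ± 25.9 CPM in root, against 31.5 ± 7.33 CPM in shoot (log2 fold change 2.32 ± 0.23, adjusted p = 1.6e-05). The lower genes were FAR1 and KCS20. FAR1, an alcohol-forming reductase of the same family as CER4, averaged 7.44 ± 2.18 CPM in root, against 74.1 ± 19.0 CPM in shoot, with a log2 fold change of -3.33 ± 0.26 (adjusted p = 2.9e-06). The reductases thus gave 2 directions, with CER4, listed with wax, higher in root and FAR1, listed with suberin, lower. FAR4, another of the family and named here after its value was seen, was higher in root at 2.71 ± 0.75 (adjusted p = 0.0142), a call lost without root A (2.62, adjusted p = 0.138), root B (2.53, adjusted p = 0.0655), shoot A (2.61, adjusted p = 0.0709) or shoot B (2.53, adjusted p = 0.0552). For FAR4 too, the root and shoot runs of a buffer are nearly the same check. KCS20 had a log2 fold change of -1.86 ± 0.18 (adjusted p = 1.2e-05), and KCS2, its close paralog, -0.45 ± 0.37 (adjusted p = 0.374).

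The extraction buffers were compared to ask whether salt or buffering strength changed the counts. None of the 10 cutin and wax genes was called in any buffer test, where 9 of all genes tested, 0.0575%, were called for any of the 4 buffers, 7, or 0.0447%, for buffer D minus B, and 0, or 0%, for buffer A minus C and for the interaction of tissue with MgCl2. Unadjusted p-values under 0.05 were found for 121 genes (0.772%) for any buffer, 253 (1.62%) for A minus C, 312 (1.99%) for D minus B and 618 (3.95%) for the interaction. For any buffer, the members with the smallest p were CER1, KCS10 and GPAT4, each with an adjusted p of 1.00 (edgeR). Buffer A minus C gave log2 differences from -1.71 ± 0.99 for CER1 to 0.59 ± 0.49 for ABCG11, and 0.39 ± 0.30 for ABCG12. Buffer D minus B gave values from -0.35 ± 0.52 for ABCG11 to 0.34 ± 0.25 for CYP86A2, and -0.21 ± 0.30 for KCS6. Each of these was under 2 SEs, and differences of that size could not be resolved with 1 library for each tissue and buffer. Whether sequencing depth also set that limit was not tested.

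**Figure D4:**
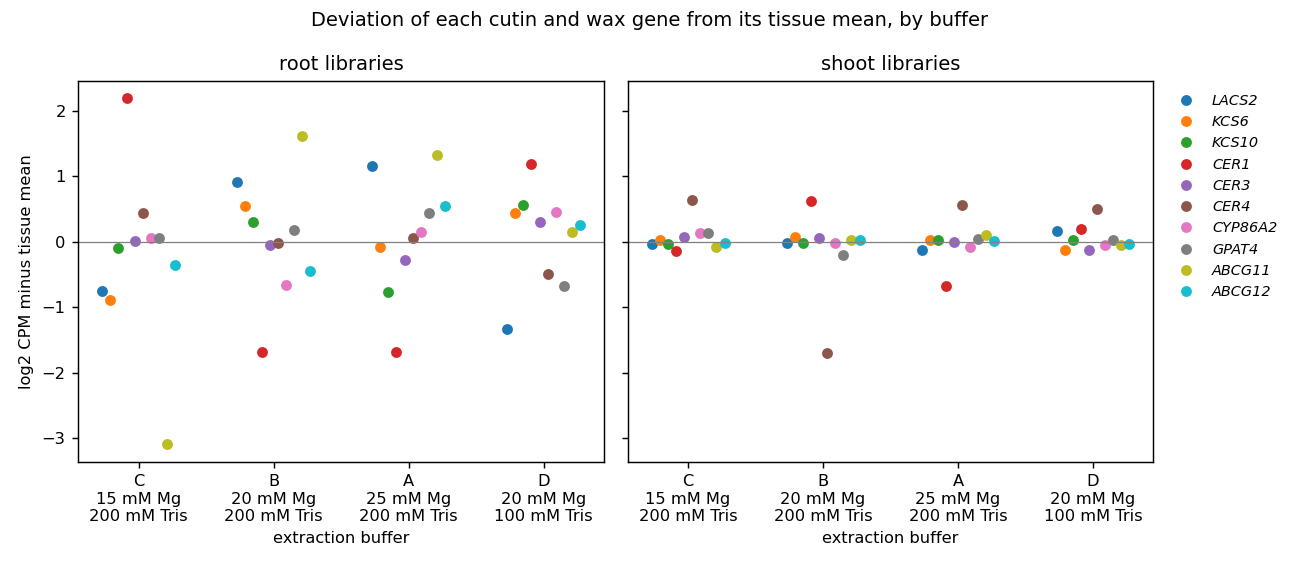
Log2 CPM of each gene minus its mean in the tissue (y axis; prior count of 1) by extraction buffer, with root libraries left and shoot libraries right. Shoot values of 8 genes stay close to 0, and CER1 and ABCG11 spread widest in root.

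In the model with a MgCl2 trend in each tissue, coefficients are per 10 mM MgCl2. KCl stood in a constant ratio to MgCl2, 50 mM to 25 mM in buffer A, so the salts cannot be told apart. The root trend minus the shoot trend was -5.19 ± 2.01 for CER1 (unadjusted p = 0.0258), 2.04 ± 0.92 for LACS2 (unadjusted p = 0.0494) and 2.08 ± 1.11 for ABCG11 (unadjusted p = 0.0866), each with an adjusted p of 1.00 (edgeR). Their signs differed. CER1 had its root counts in buffers C and D, while LACS2 and ABCG11 had their higher root values in buffers A and B.

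The spread between libraries of a tissue differed among the genes. In shoot, the 8 genes other than CER1 and CER4 had coefficients of variation from 1.67% for ABCG12 to 9.44% for GPAT4, and CER1 had 37.3% and CER4 57.8%. In root the lowest was 16.9% for CER3 and the highest 130% for CER1, with CER4 at 26.0%. The gene with the widest root spread was also the one with the fewest root counts.

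Genes with the most similar profile were found by the Pearson correlation over the 8 libraries of log2 CPM with the mean standardised profile of the 10, given as a description, since all 8 points share the tissue difference. The highest was CPN60B, a plastid chaperonin subunit, at 0.9995, with 96.5 ± 6.31 CPM in root, against 2013 ± 95.1 in shoot (SD, n = 4 each). AT1G09310, CLPC1, a plastid chaperone, and HDS, an enzyme of plastid isoprenoid synthesis, followed at 0.9994, 0.9994 and 0.9993, and PORA, a protochlorophyllide reductase with 0 counts in root, at 0.9990. Outside the 10, 482 genes had a value above 0.99, where 15664 genes were tested in all. Of the 10 themselves CER3 had 0.993 and CER1 0.875, while CER4 had -0.951. Each of the 10 is part of the mean profile, so their values are not comparable with those of other genes.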

How the data were processed

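Ribosome footprints on coding sequences were measured in 8 libraries. The authors deposited them as raw counts, not normalized, for each gene and library. The submitters' processing notes name Bowtie2, STAR 2.5.1b and TAIR10 but not what each did. Not given in the sources used here are the counting program, any filter on footprint length and how multiply matching reads were treated; close paralogs may share reads. Symbols came from a RefSeq table of TAIR10.1 (26719 of 27416 identifiers, all 10 members). No sequences or coding lengths were used here, so the planned levels per coding length were not computed and levels are not compared between genes.

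Counts were analysed in R 4.3.3 with edgeR 4.0.16. Genes were filtered with filterByExpr on tissue (at least 10 counts, 15 in total), scaled by TMM and tested with the quasi-likelihood test with tissue and buffer as terms (3 residual degrees of freedom), adjusted by Benjamini-Hochberg over 15664 genes and called at 0.05. The SE is the absolute log2 fold change divided by the square root of F. The fit was also run on simulated counts in which few genes were changed, equally up and down. In the data 40.3% of genes were called, so that run does not check the scaling. Within-library ratios were tested by exact permutation. Alternatives were DESeq2 1.42.0, other scalings, no filter, no buffer term and each library left out. Libraries of the 2 tissues in the same buffer did not deviate together (r from -0.006 to 0.019). With 1 library left out, the buffer term fits the lone library of that buffer exactly. That library then adds almost nothing to the root minus shoot fold change. Leaving out the root or the shoot library of a buffer is thus nearly the same check. No 2 libraries were identical.

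Members and gene lists were chosen with earlier results of these data known. By rule, the text names all members, their paired partners, the genes of each list with the highest counts and those against their list's direction, and, for each buffer test, the 3 members with the smallest p; other genes of the lists were named after their values were seen.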

Additional observations from a re-analysis of the deposited data

Results flagged for a closer look

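CER4 stood at 0.285 CPM in the shoot library of buffer B, from 1 count, away from the other shoot libraries at 2.54 to 2.82 CPM; the gap to the nearest was 0.888 of the range. The log2 ratio of CER4 to CER3 in the same library, -9.15, lay apart from the other shoot libraries at -6.38 to -6.31 and rests on the same count. These were 2 of 32 groups of 4 libraries examined for a library far from the others, and chance marks about 1 group in 20. Without shoot B the log2 fold change of CER4, root minus shoot, was 4.48, against 4.90 with it. Without root B, with the shoot B count kept, it was also 4.48. Either run takes buffer B almost wholly out of the contrast, so the shift cannot be credited to that 1 count. The root minus shoot difference of the ratio, which has no buffer term, was 7.91 without shoot B, against 8.61.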

How the results depend on the processing

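All 9 lower calls and the 1 higher call among the 10 genes were kept in the 14 alternatives run, with log2 fold changes, root minus shoot, between -6.44 and -1.88 for the 9 and between 4.48 and 5.39 for CER4. Without the replicate block (no buffer term) 7019 genes were called against 6315 with it, and 9 and 1 of the 10; same-buffer libraries share only the buffer. The sign flips within buffers, as a replicate block for the paired ratios, called 0 of 6 pairs, where the smallest possible p is 0.125. With a pseudocount of 2, 4 pairs passed, and leaving out 1 library gave 0 to 5. Thinning every library to the smallest total, chosen after seeing the data, left 3 suberin genes higher in root of 6 that could be tested (median 0.89), against 6 of 9 (median 2.62), and leaving out 1 library gave 4 to 7. Counts for any of the 4 buffers, 9 genes, became 14 with library totals, 23 without the filter, 24 with DESeq2 and 0 to 13 with 1 library left out. For buffer D minus B, 7 genes became 2 with DESeq2 size factors, 15 without the filter and 0 to 17 with 1 library left out. The interaction count of 0 became 2 without the filter and 0 to 7 with 1 library left out. The causes were not tested. None of these called a member in a buffer test. Levels per coding length were not run for want of coding lengths. The values of genes with few root counts, such as CER1 with 13, CYP86A4 with 22 and ABCG11 with 49, have a large counting error. How much root depth adds to it was not tested.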
